A study of Mus musculus with 4 samples.

Results

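The 10 genes described here, *Axin2*, *Lef1*, *Tcf7*, *Nkd1*, *Nkd2*, *Rnf43*, *Znrf3*, *Notum*, *Apcdd1* and *Sp5*, are established transcriptional targets of canonical Wnt (cWnt) signaling, and many of them feed back on the pathway. They were taken by symbol, and all 10 are among the 23946 genes listed in each library. Bulk RNA-seq had been made from skeletal stem/progenitor cells sorted by FACS as CD51+;CD200+ from 3 cranial sutures and from the growth plate (GP) of the tibia. The sutures were the posterior frontal (PF), the sagittal (SAG), and the coronal (COR). All were wild-type CD-1 mice at postnatal day 3 (pN3), untreated, and each tissue is represented by 1 library of cells from many pooled animals. The PF suture later fuses and the SAG and COR sutures remain patent; pN3 precedes fusion. The question was whether cWnt target genes differed between these sutures. The suture dissection took the osteogenic fronts, suture mesenchyme, dura mater and periosteum together, and the sort excluded cells positive for CD45, Ter119, Tie2, Thy1, 6C3 or CD105.

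In cWnt signaling, a Wnt ligand binds a Frizzled receptor and an LRP co-receptor, the complex that marks β-catenin for destruction is inhibited, and β-catenin enters the nucleus. There it joins TCF/LEF factors on DNA and activates transcription. Transcripts of the genes it activates are widely used as a readout of signaling, and several of these genes encode inhibitors of the pathway. In cranial sutures, cWnt signaling is known for its part in the choice between fusion and patency.

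Values are FPKM, in which fragments are divided by the length of the transcript and the size of the library, so that levels of different genes can be set side by side. With 1 library per tissue there are no replicates, hence no error, no test and no p-value for any difference between tissues, and tissue and library cannot be told apart. Differences are log2(FPKM + 1) in the first tissue minus that in the second, and adding 1 makes the change of weakly expressed genes look smaller. A difference of 3-fold (1.58 on the log2 scale) was counted only where the gene reached 1 FPKM in either library of the pair. The number of fragments behind a value is an estimate, read from the spacing of low values once FPKM is multiplied by transcript length. By that estimate the PF library held 43.7%, COR 87.3% and GP 82.7% of the fragments of SAG, so low values were least precise in PF. In bulk samples, fewer cells of a type and less RNA per cell cannot be told apart.

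The members did not follow one order across the sutures. Of the 10, 8 reached 1 FPKM in a suture, and 3 of these passed 3-fold in at least 1 pair of sutures. *Sp5* and *Lef1* were highest in SAG, and *Tcf7* was highest in COR. Of all genes compared, 15.7% passed between PF and SAG, 11.7% between PF and COR and 9.25% between COR and SAG. The share of all genes that passed in at least 1 pair was not counted. *Nkd1*, *Nkd2*, *Znrf3*, *Notum* and *Apcdd1* stayed within 3-fold in every pair of sutures, and *Axin2* and *Rnf43* were below 1 FPKM in all 4 libraries and entered no count of 3-fold differences. At any level, *Axin2* and *Rnf43* included, 2 of the 10 members were highest in PF, 5 in SAG and 3 in COR. Among the 8 that reached 1 FPKM in a suture, the numbers were 2, 3 and 3, against 39.3%, 33.9% and 26.8% of all 13733 genes at that level. The range over the 3 sutures had a median of 0.85 on the log2(FPKM + 1) scale for these 8 members and 0.93 for the 13733 genes.

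**Figure D1:**
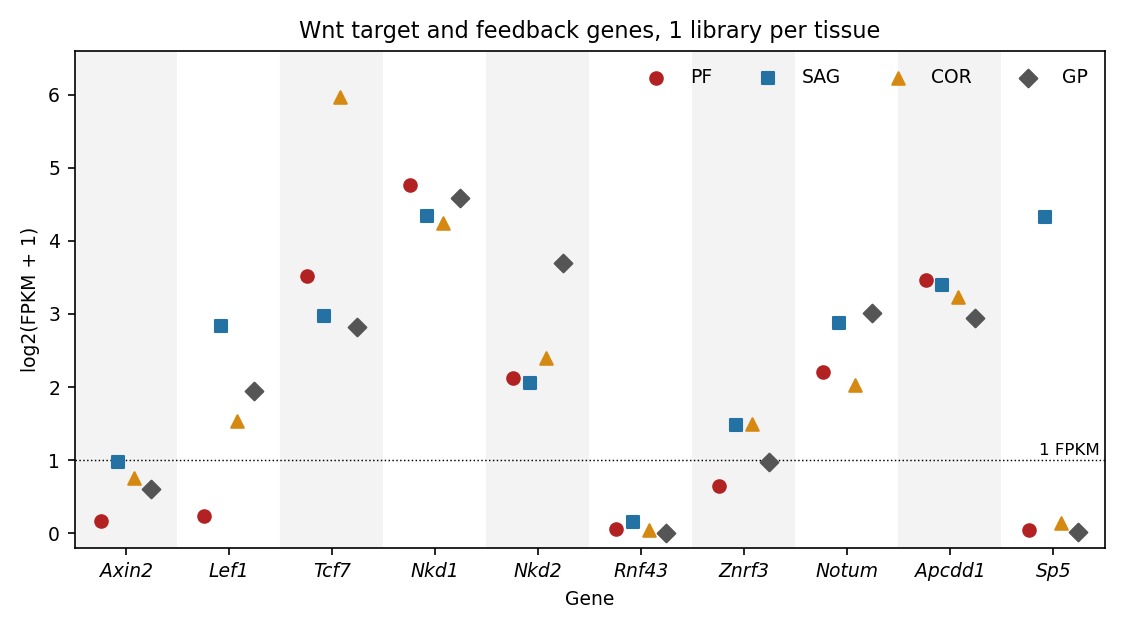
Level of each member as log2(FPKM + 1), 1 point per library, for the PF, SAG and COR sutures and the growth plate (GP); the dotted line stands at 1 FPKM. *Sp5* was above the line in SAG alone, *Tcf7* stood highest in COR, and *Nkd1* and *Apcdd1* had narrow ranges.

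Between PF- and SAG-CD51+;CD200+ cells, 8 members could be compared. None was at least 3-fold higher in PF, where the background over 13490 genes was 6.64%, and 2 (*Lef1* and *Sp5*) were at least 3-fold lower, where it was 9.04%. Of the 8, 4 lay above and 4 below 0, with a median of -0.31 against 0.03 for all genes. Between PF and COR, none of 7 members was higher in PF (background 6.81% of 12853 genes) and 1, *Tcf7*, was lower (4.87%); 3 lay above and 4 below 0, with a median of -0.26 against 0.05. Between COR and SAG, 1 of 8 members, *Tcf7*, was higher in COR (background 3.11% of 12720 genes) and 1, *Sp5*, was lower (6.15%); 3 lay above and 5 below 0, with a median of -0.13 against -0.02. Each library enters 2 of these 3 comparisons, so they are not independent. With so few members, the counts are at most 2 genes.

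**Figure D2:**
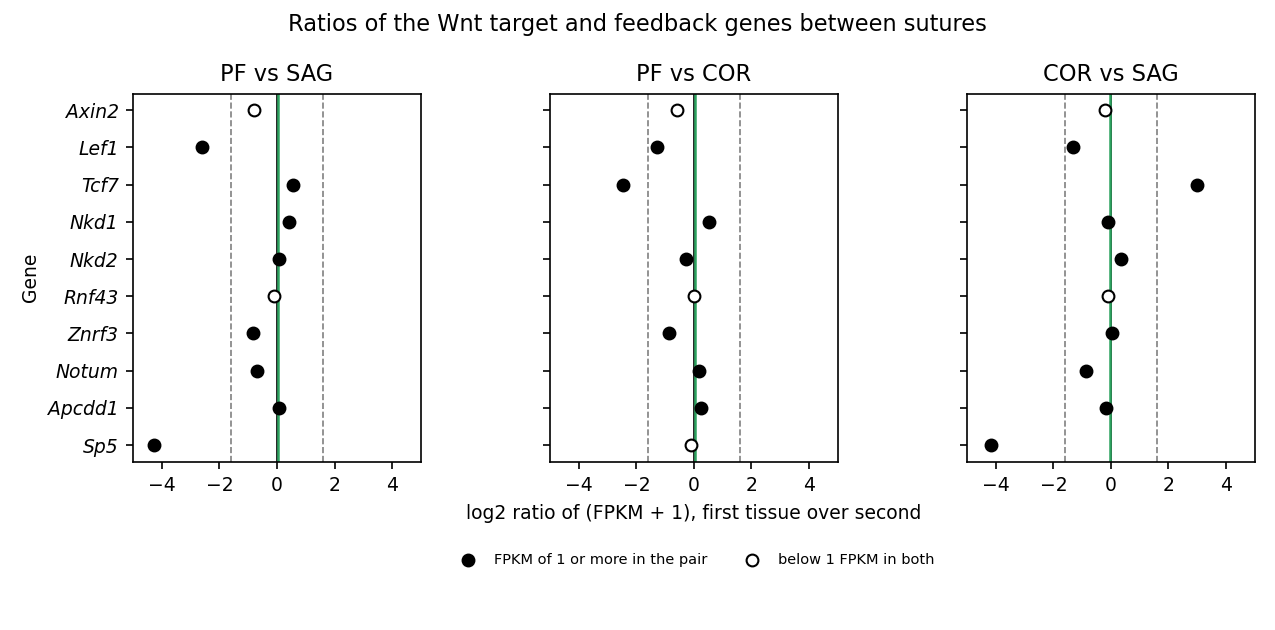
Difference in log2(FPKM + 1) of each member between each pair of sutures, the first tissue over the second, with filled points for members at 1 FPKM or more in the pair and open points for those below it in both. Dashed lines mark 3-fold and the green line the median of all genes compared; *Lef1*, *Tcf7* and *Sp5* lie beyond the dashed lines.

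The first members by role are the DNA-binding partners of β-catenin. *Lef1* (mm9 chromosome 3, 130813389 to 130927274, plus strand) encodes a TCF/LEF factor that is also induced by the pathway. It was at 6.15 FPKM in SAG, 2.87 in GP, 1.88 in COR and 0.18 in PF, from an estimated 894, 345, 239 and 11 fragments. PF was the lowest and SAG the highest, with COR and GP between them. The difference was -2.60 between PF and SAG, -1.29 between PF and COR and -1.31 between COR and SAG, so only the first passed 3-fold. Of the 13490 genes compared between PF and SAG, 381 were farther below 0 than *Lef1*. With a pseudocount of 0.1 in place of 1, *Lef1* passed 3-fold in the other suture pairs too, at -2.82 between PF and COR and -1.66 between COR and SAG.

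*Tcf7* (chromosome 11, 52065873 to 52096681, minus strand) encodes TCF1, known both from T cells and as a cWnt target. It was at 61.8 FPKM (COR), 10.5 (PF), 6.83 (SAG) and 6.06 (GP). COR stood apart, with an estimated 5450 fragments, and the other 3 libraries lay within a narrow range, from 462 to 690 fragments. The difference was -2.45 between PF and COR (5.48-fold), 3.00 between COR and SAG (8.02-fold) and 0.55 between PF and SAG. Only 82 of 12720 genes were farther above 0 than *Tcf7* between COR and SAG, and 187 of 12853 were farther below 0 between PF and COR. Of 7 T cell markers, 6 were listed at 0 in COR, and the list summed to 0.515 FPKM there against 0.547 in GP, 1.32 in SAG and 2.46 in PF. *Lck*, a T cell kinase and the highest of that list, was at 0.515 FPKM in COR.

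The 2 factors thus had different orders. *Tcf7* was 58-fold the FPKM of *Lef1* in PF, 32.8-fold in COR, 2.12-fold in GP and 1.11-fold in SAG. *Tcf7l1* and *Tcf7l2*, the other TCF/LEF genes, varied less: *Tcf7l1*, often a repressor of targets, was at 25.1 FPKM in COR, 22.3 in GP, 18.7 in SAG and 12.5 in PF. *Tcf7l2* was at 13.4 FPKM (PF), 10.5 (GP), 9.19 (SAG) and 7.80 (COR). Summed FPKM of the 4 genes was 96.6 in COR, 41.7 in GP, 40.9 in SAG and 36.6 in PF. *Tcf7* made up 64.0% of that sum in COR, against 28.6% in PF, 16.7% in SAG and 14.5% in GP, and *Lef1* made up 15.0% in SAG and 0.493% in PF.

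**Figure D3:**
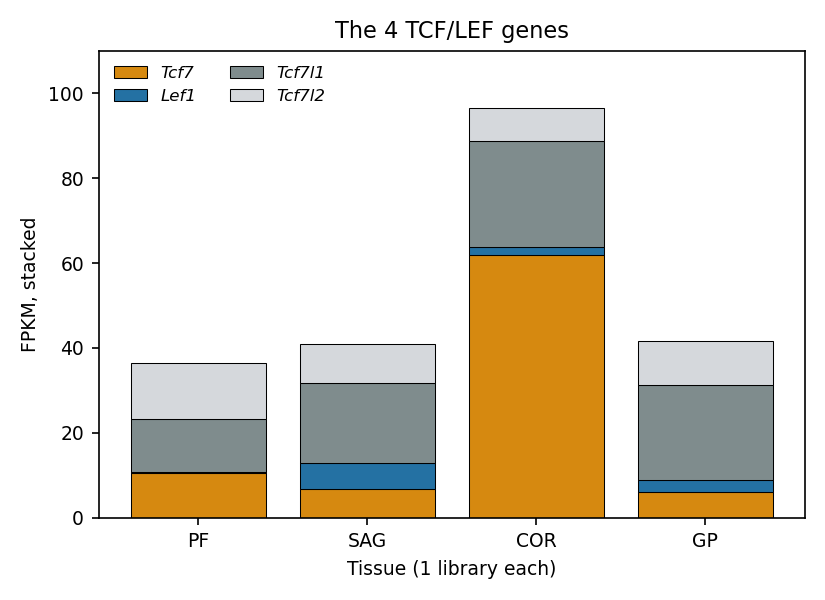
FPKM of the 4 TCF/LEF genes stacked for each library, 1 library per tissue. The COR bar reaches 96.6 FPKM, of which *Tcf7* is 61.8, and *Lef1* is visible mainly in SAG and GP.

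The next members are intracellular feedback inhibitors. *Axin2* (chromosome 11, 108781663 to 108812097, plus strand) encodes a scaffold of the destruction complex and is the most used cWnt reporter gene. It was at 0.977 FPKM (SAG), 0.695 (COR), 0.512 (GP) and 0.125 (PF), from an estimated 166, 103, 72 and 9 fragments. PF was lowest, but every library was under 1 FPKM and the difference between PF and SAG was -0.81 on the log2(FPKM + 1) scale. Exons of *Axin2* overlap those of *Gm11670* on the other strand, and without stated strand the reads of both cannot be told apart. The genes nearest to *Axin2* by Euclidean distance of mean-centred log2(FPKM + 1) over the 4 libraries, among the 9802 genes that reached 5 FPKM in a library, were *Casp2* (0.0406), *Dcun1d4* (0.0411), *Nbr1* (0.0487), *Gatc* (0.0593) and *Suv420h1* (0.0597). *Casp2* was at 12.2 FPKM (SAG), 10.4 (COR), 8.86 (GP) and 6.63 (PF), an order that its selection fixed. Adding 1 shrank the PF to SAG difference of *Axin2* from 7.8-fold to 1.76-fold. The nearest genes therefore match that shrunken profile and not the ratios of its FPKM.

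*Nkd1* and *Nkd2* encode Naked cuticle proteins, which bind Dishevelled and dampen signaling. *Nkd1* (chromosome 8, 91045243 to 91118786, plus strand) was the highest member in PF, SAG and GP, at 26.2 FPKM in PF, 22.9 in GP, 19.2 in SAG and 18.0 in COR, each from an estimated 1970 to 3300 fragments. Its largest difference between sutures was 0.52, between PF and COR. *Nkd2* (chromosome 13, 73955982 to 73985079, minus strand) was at 12.0 FPKM (GP), 4.27 (COR), 3.39 (PF) and 3.15 (SAG). The 3 sutures lay within a range of 0.34 and GP stood above them. The FPKM of *Nkd1* was 7.73-fold that of *Nkd2* in PF, 6.10-fold in SAG, 4.22-fold in COR and 1.91-fold in GP.

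*Rnf43* and *Znrf3* encode related transmembrane ubiquitin ligases that remove Frizzled receptors from the cell surface, and R-spondins inhibit them. *Rnf43* (chromosome 11, 87476224 to 87549041, plus strand) was at 0.106 FPKM in SAG, 0.0406 in PF and 0.0384 in COR, from an estimated 18, 3 and 6 fragments, and is listed at 0 in GP. So few fragments give its order among the sutures no weight. *Znrf3* (chromosome 11, 5176327 to 5344850, minus strand) was at 1.84 FPKM in COR, 1.79 in SAG, 0.953 in GP and 0.562 in PF. SAG and COR were level, and PF was below both, by 3.18- and 3.26-fold without a pseudocount but by -0.83 and -0.86 on the log2(FPKM + 1) scale, within the 3-fold limit. *Rnf43* was below *Znrf3* in every library.

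*Notum* and *Apcdd1* encode inhibitors that act outside the cell or at its membrane. *Notum* (chromosome 11, 120515102 to 120522489, minus strand), a secreted enzyme that removes the lipid of Wnt ligands, was at 7.05 FPKM (GP), 6.35 (SAG), 3.59 (PF) and 3.09 (COR). SAG and GP were the higher pair, with a difference of -0.68 between PF and SAG, -0.85 between COR and SAG and 0.98 between GP and COR. Its exons overlap *4732444A12Rik* and *Gm11768* on the other strand. *Apcdd1* (chromosome 18, 63081981 to 63112849, plus strand), a membrane glycoprotein that binds Wnt and LRP proteins, had 10 FPKM (PF), 9.53 (SAG), 8.38 (COR) and 6.72 (GP). Its range over the sutures, 0.23, was the narrowest of the members above 1 FPKM. The direction of these suture differences of *Apcdd1*, and those of *Nkd1* between COR and SAG, *Nkd2* between PF and SAG, *Notum* between PF and COR and *Znrf3* between COR and SAG, was not the same under every alternative scaling or the GC correction. Between PF and COR, only the GC correction turned *Notum* (-0.23) and *Apcdd1* (-0.10).

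*Sp5* (chromosome 2, 70312980 to 70315786, plus strand), a zinc-finger transcription factor and direct β-catenin target that represses other targets, had the widest range. It was at 18.9 FPKM (SAG), 0.103 (COR), 0.0356 (PF) and 0.0166 (GP), from an estimated 1580, 8, 1 and 1 fragments. SAG was the only library above 1 FPKM, and the other 3 rested on 8 or fewer fragments. The difference was -4.27 between PF and SAG and -4.18 between COR and SAG. Only 52 of 13490 and 65 of 12720 genes were farther below 0 in these comparisons.

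Because *Sp5* and *Lef1* were both highest in SAG, the 250 bases before their first listed start site (RefSeq, GRCm38.p6) are shown, with matches to 4 TCF/LEF-type motifs in capitals on either strand. Those motifs were CTTTGAA as the first, CTTTGAT as the second, CTTTGTA as the third and CTTTGTT as the fourth. The *Sp5* window is chr2:70474673-70474922 and that of *Lef1* chr3:131110047-131110296, both on the plus strand.
Sp5: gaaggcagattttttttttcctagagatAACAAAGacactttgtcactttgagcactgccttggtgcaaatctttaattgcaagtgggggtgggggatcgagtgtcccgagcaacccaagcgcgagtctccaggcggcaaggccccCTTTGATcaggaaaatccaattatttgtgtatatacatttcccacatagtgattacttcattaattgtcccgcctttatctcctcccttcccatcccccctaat
Lef1: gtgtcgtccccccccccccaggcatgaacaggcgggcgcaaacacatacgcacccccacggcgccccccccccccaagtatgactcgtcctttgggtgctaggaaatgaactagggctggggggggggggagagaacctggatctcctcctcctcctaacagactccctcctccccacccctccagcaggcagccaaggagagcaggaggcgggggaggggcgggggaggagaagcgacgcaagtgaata
The *Sp5* window held 2 matches, CTTTGTT on the opposite strand from 222 to 216 bases before the start and CTTTGAT on the strand of the gene from 104 to 98 bases before it. The *Lef1* window shown held 0. RefSeq windows of 300 bases, which also include 50 bases after the start, were found for 7 of the 10 members, 12 windows in all; *Znrf3*, *Notum* and *Apcdd1* had none. A match was present in 2 of the 12 (16.7%), that of *Sp5* and that of another *Lef1* start, CTTTGTA from 147 to 141 bases before it on the opposite strand, against 16.9% of all 32851 windows. At least 2 matches were found in 1.94% of all windows. A match of letters describes the window and does not mark a binding site.

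GP-CD51+;CD200+ cells were the reference outside the skull. *Nkd2* was higher in GP than in every suture, as was *Notum*. For *Nkd2* the difference was 1.65 against SAG (3.13-fold), 1.57 against PF (2.96-fold, just short of the limit) and 1.30 against COR (2.47-fold). Between GP and PF, 1 of 6 members, *Lef1* at 1.71, was at least 3-fold higher in GP (background 6.24%) and none was lower (5.72%), with a median of 0.31 against -0.03 for all genes. Between GP and SAG, 1 of 8, *Nkd2*, was higher (3.86%) and 1, *Sp5* at -4.29, was lower (4.8%), with a median of -0.30. Between GP and COR, none of 7 was higher (3.2%) and 1, *Tcf7* at -3.15, was lower (1.2%), with a median of 0.33. Only 29 of 12209 genes were farther below 0 than *Tcf7* between GP and COR. These comparisons share the GP library with one another. *Lef1* no longer passed 3-fold between GP and PF relative to *Gapdh*, nor *Nkd2* between GP and SAG after rescaling without the 50 highest genes.

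Other parts of the pathway were read from lists of genes named by function. Among 24 other reported Wnt/β-catenin targets, 17 could be compared between PF and SAG. Of these, 6 were at least 3-fold higher in PF (*Lgr5*, *Ccnd1*, *Cd44*, *Fgf18*, *Ephb3* and *Fst*, background 6.64%) and 1 lower (*Sox4*, background 9.04%). The median was 1.13 against 0.03 for all genes. Between PF and COR, 2 of 18 were higher in PF (*Lgr5* and *Fgf18*, background 6.81%) and 4 lower (*Dkk1*, *Wif1*, *Cd44* and *Irx3*, background 4.87%). The median was -0.84 against 0.05 for all genes. Between COR and SAG, 6 of 17 were higher in COR (*Tnfrsf19*, *Ccnd1*, *Dkk1*, *Wif1*, *Cd44* and *Irx3*, background 3.11%) and 2 lower (*Sox4* and *Cyr61*, background 6.15%). The median was 0.95 against -0.02 for all genes. Like *Sp5* and *Lef1*, *Sox4* and *Cyr61* were highest in SAG, at 274 and 628 FPKM, with GP next at 143 and 436. *Cd44*, an adhesion receptor, was instead lowest in SAG, at 75.1 FPKM in COR, 22.2 in GP, 15.0 in PF and 4.0 in SAG. *Tnfrsf19*, a TNF receptor family gene, was like *Tcf7* highest in COR, at 92.8 FPKM (COR), 31.1 (PF), 12.1 (SAG) and 10.6 (GP). *Lgr5*, an R-spondin receptor, was at 10.8 FPKM in PF and 9.20 in GP, and below 1 in SAG and COR.

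The destruction complex, its kinases and regulators differed least. Of its 19 genes, 18 could be compared, and none passed 3-fold in any pair of sutures. Of all genes, 15.7% passed between PF and SAG, 11.7% between PF and COR and 9.25% between COR and SAG. The medians of the list were -0.08 between PF and SAG, -0.19 between PF and COR and 0.10 between COR and SAG. *Ctnnb1*, the β-catenin gene itself, had 263 FPKM (COR), 177 (GP), 174 (PF) and 158 (SAG). *Apc*, a scaffold of the complex, was at 3.59 FPKM (COR), 3.27 (SAG), 3.03 (GP) and 1.52 (PF). *Gsk3b*, a kinase of the complex, was at 10.1 FPKM (GP), 9.49 (SAG), 7.58 (COR) and 4.65 (PF). Of 16 TCF/LEF partners and repressors, 15 could be compared. *Tle1*, *Tle4* and *Sox9* were at least 3-fold lower in PF than in SAG (background 9.04%). *Tle1* was lower in PF than in COR (4.87%), and *Sox9* was lower in COR than in SAG (6.15%). *Tle1*, a Groucho co-repressor that TCF/LEF factors recruit, was at 27.1 FPKM in SAG, 17.3 in GP, 17.2 in COR and 1.21 in PF, lowest in PF and highest in SAG.

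Receptors and modulators of ligands passed 3-fold in several places. Of 7 R-spondins and their receptors, 6 could be compared between PF and SAG, 6 between PF and COR and 5 between COR and SAG. *Lgr5* was higher in PF than in SAG (background 6.64%). Between PF and COR, 3 (*Rspo2*, *Rspo3* and *Lgr5*) were higher in PF (6.81%), and *Rspo2* and *Rspo3* were lower in COR than in SAG (6.15%). *Rspo3* was at 50.3 FPKM (SAG), 23.5 (PF), 21.8 (GP) and 6.22 (COR). Of 15 Wnt receptor genes, 15 could be compared between PF and SAG and 14 in each other suture pair. In PF, 1 was higher (*Fzd2*, background 6.64%) and 3 lower (*Fzd6*, *Fzd9* and *Fzd10*, 9.04%) than in SAG. Another 2 counts were *Fzd4* and *Fzd9*, higher in PF than in COR (6.81%), and *Fzd9* and *Fzd10*, lower in COR than in SAG (6.15%). *Fzd9* was at 161 FPKM in SAG, 48.2 in PF, 19.5 in GP and 10.5 in COR, and *Fzd10* at 6.10 FPKM (SAG), 0.648 (PF), 0.478 (COR) and 0.0521 (GP). *Fzd10*, like *Sp5*, was above 1 FPKM in SAG alone. Of 14 secreted antagonists, 11 could be compared between PF and SAG and 12 in each other suture pair. *Sfrp2* was higher in PF than in SAG (background 6.64%), and *Sfrp1* and *Sfrp2* were higher in PF than in COR (6.81%). *Dkk1* and *Wif1* were lower in PF than in COR (4.87%), and *Dkk1*, *Sfrp4* and *Wif1* were higher in COR than in SAG (3.11%). *Dkk1*, an LRP antagonist that is itself a reported target, was at 27.0 FPKM (COR), 8.05 (GP), 4.74 (SAG) and 3.52 (PF).

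**Figure D4:**
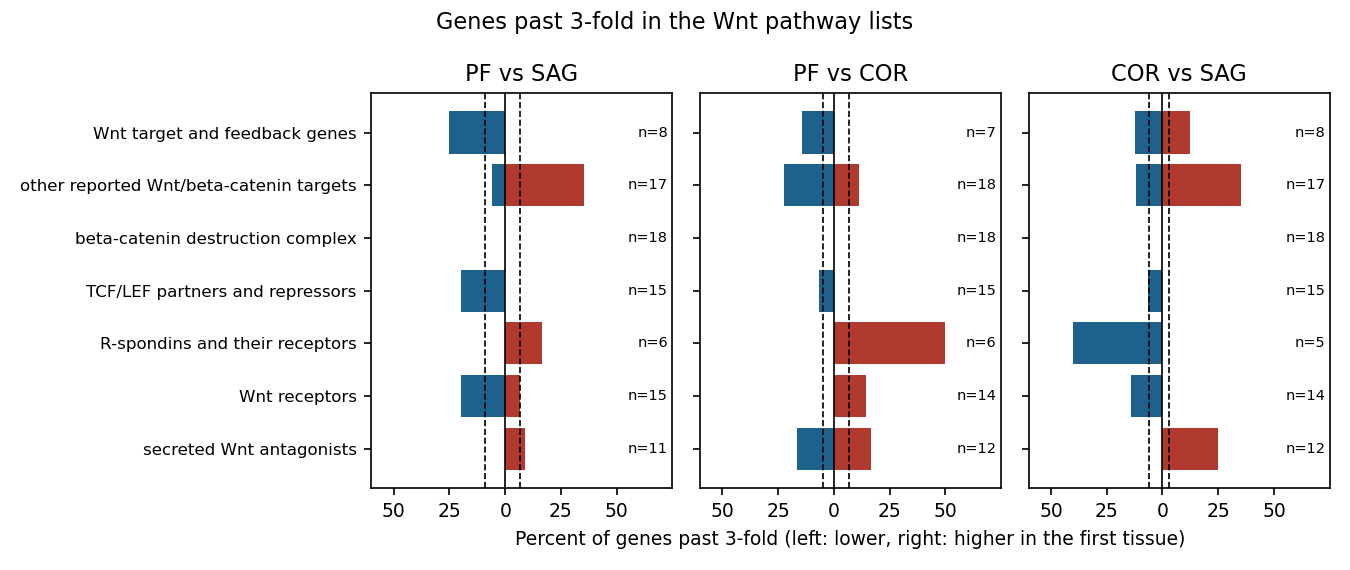
Percent of the compared genes of each pathway list (n beside each bar) past 3-fold in each pair of sutures, to the left lower and to the right higher in the first tissue; dashed lines are the percents over all genes. The destruction complex has no bar in any pair, and with n of 5 to 18 a gene or a few make each bar.

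The sorted cells carried the transcripts of both sorting antigens in every library, with *Itgav* (CD51) at 6.20 to 15.0 FPKM and *Cd200* at 23.5 to 62.6 FPKM. Of the antigens the sort excluded, *Ptprc* (CD45) was at most 0.568 FPKM, *Tek* (Tie2) at most 0.627 and *Thy1* at most 0.435. *Eng* (CD105) was at 0.679 to 1.7 FPKM. *Enpep* (6C3) was at 7.05 FPKM in PF, 3.74 in COR, 2.74 in SAG and 1.39 in GP, so not all excluded antigens were near 0. *Gapdh*, a reference gene, was at 281 FPKM in PF and from 335 to 407 in the others. Markers of other cell types also differed between the libraries, though not always in the order of the members. In GP, *Tcf7* was at 6.06 FPKM and *Sp5* at 0.0166 FPKM, beside high osteoblast and chondrocyte sums given below. In SAG, where *Sp5* and *Lef1* were highest, the 10 neural and choroid plexus markers summed to 5332 FPKM, against 508 in PF, 212 in COR and 57.3 in GP, of which *Ttr*, of choroid plexus, was 5103 in SAG. Of the 9 that could be compared between COR and SAG, 5 were at least 3-fold lower in COR (background 6.15%) and 2 higher (3.11%). Those 2, *Aqp1* and *Tubb3*, were lowest in SAG (11.9 and 1.28 FPKM) and highest in COR (53.8 and 10.2). The 8 chondrocyte markers summed to 3863 FPKM in SAG and 3059 in GP but to 156 in PF and 119 in COR, with *Col2a1* at 1750 in SAG and 1731 in GP. Between GP and SAG, 1 of these 8 markers was at least 3-fold higher (background 3.86%) and 2 were lower in GP (4.8%), with a median of -0.74. *Krt15*, a keratinocyte gene, was at 112 FPKM in SAG and at most 9.87 elsewhere, in a list that summed to 123 there. The rest of that list did not follow it. *Krt10* was at 11.2 FPKM in SAG and 12.6 in PF, and *Krt5*, *Krt14*, *Dsp* and *Trp63* were at most 0.0691 in SAG. In COR, where *Tcf7* was highest, the 7 osteoblast lineage markers summed to 11845 FPKM, against 2731 in PF, 887 in SAG and 8181 in GP, and all 7 were at least 3-fold higher in COR than in SAG (background 3.11%). *Spp1*, a bone matrix gene and the highest of the list, made up 8324 FPKM of the sum in COR and 6882 in GP. In PF, where *Axin2*, *Lef1* and *Znrf3* were lowest, myeloid and erythroid markers summed to 49.4 FPKM against 7.24 to 12.7 elsewhere and endothelial markers to 35.1 against 3.39 to 17, with *Lyz2* at 30.2 and *Esam* at 29.5. The endothelial sum in PF was thus mostly *Esam*. *Cdh5* (1.68 FPKM), *Flt1* (1.48) and *Pecam1* (0.295) were also highest in PF, at low levels. *Kdr* was instead highest in SAG (14.9, against 2.12 in PF) and *Emcn* in GP (0.738, against 0.0802 in PF). Meningeal markers summed to 392 FPKM in PF, 232 in SAG, 214 in GP and 111 in COR. The sum in GP was mostly *Crabp2* (177), which was highest there. Between GP and PF, 6 of the 8 meningeal markers were at least 3-fold lower in GP (background 5.72%) and none was higher (6.24%). Smooth muscle and pericyte markers summed to 794 FPKM (PF), 591 (GP), 322 (COR) and 65.4 (SAG), with *Acta2* highest in PF (530). The part of other cell types in the levels of the members was not tested.

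**Figure D5:**
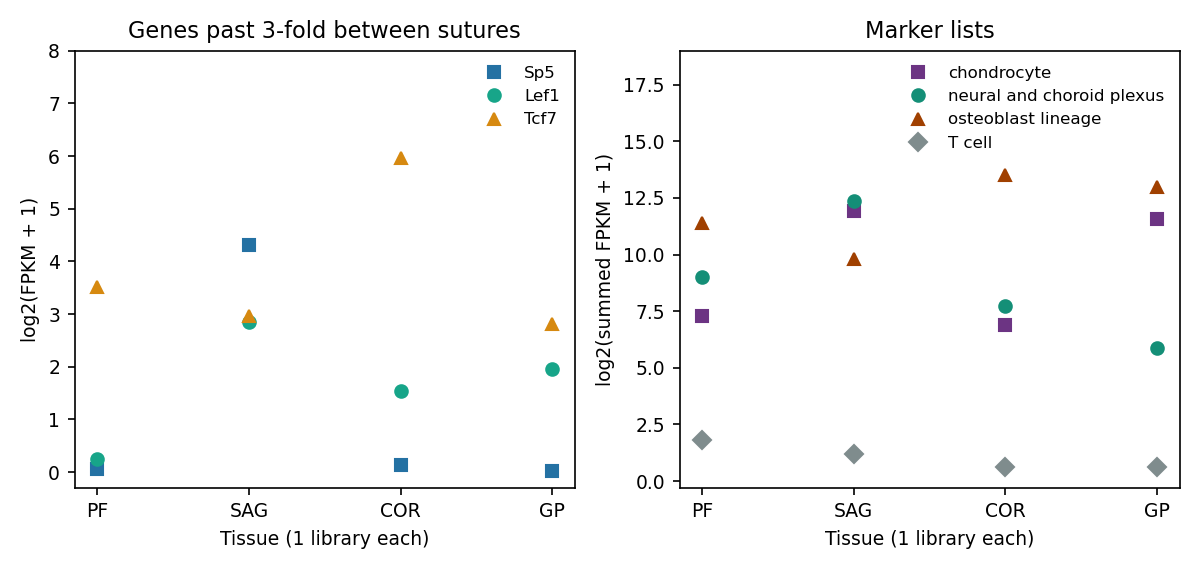
Left, log2(FPKM + 1) of the 3 members past 3-fold between sutures; right, log2(summed FPKM + 1) of 4 marker lists, 1 point per library. *Sp5* and the neural and choroid plexus list are highest in SAG, *Tcf7* and the osteoblast list in COR, and the T cell list is lowest in COR and GP. The neural and choroid plexus sum in SAG is mostly *Ttr*.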

How the data were processed

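CD51+;CD200+ cells of 4 tissues were profiled, with 1 library each. The RNA was amplified with a low-input kit; strandedness is not stated. Per the study's methods and the submitters' processing notes, the authors ran FastQC on the paired reads, aligned these to mm9 (STAR 2.5.1b) and took transcript abundance from Cuffdiff (Cufflinks 2.2.1, iGenomes gene model). FPKM for each symbol was deposited; the depth and the library scaling within Cuffdiff are not given in the sources used here. FPKM holds no counts, so no interval or floor is given.

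Groups came from the sample titles. Ratios were taken as log2(FPKM + 1), and genes that reached 1 FPKM in either library of a pair were compared and counted at 3-fold. Fragments were estimated from 3507 single-transcript genes and the longest transcript of each member (GENCODE vM1 on mm9), so they are approximate. All members are named, with pathway genes past 3-fold between sutures that reached 5 FPKM (of these, a selection is given values), *Ctnnb1*, *Apc*, *Gsk3b*, *Tcf7l1*, *Tcf7l2*, the highest gene of each marker list, *Gapdh* and the 5 genes nearest *Axin2*. Genes of the sorting antigens and further keratinocyte, endothelial, neural and choroid plexus markers are named too. The members and lists were chosen with earlier results of these data known. *Ly76* and *Tiki2* matched no symbol. A gene of the list of other reported targets is not reported here and was left out of its counts. No protein sequences were used. Alternatives were other pseudocounts, scalings, filters and folds, and a loess correction for GC content (span 0.3; 80.8% of symbols and all 10 members had a value). The ratio, the filter and the 3-fold count were tested on simulated data, with changes larger than 3-fold in genes at 5 FPKM or more. The fragment estimate, the scalings, the GC correction and the motif search were not tested in that way. Scripts used Python 3.11.15 with statsmodels 0.14.6, pandas 2.3.3, matplotlib 3.10.9, scipy 1.17.1 and numpy 2.4.6.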

Additional observations from a re-analysis of the deposited data

How the results depend on the processing

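Between sutures, *Sp5* in SAG against PF and COR, *Tcf7* in COR against PF and SAG, and *Lef1* in SAG against PF (PF minus SAG -4.48 to -2.37) stayed past 3-fold in the same direction in each alternative that gave a value. *Sp5* ranged from -7.13 to -4.06 between PF and SAG, and *Tcf7* from 2.88 to 3.25 between COR and SAG. The medians and counts of so few members moved more often, and the cause was not tested where none is named. Relative to *Gapdh*, the median of all genes was 0.51 in PF vs SAG, 0.29 in PF vs COR, 0.23 in COR vs SAG and -0.46 in GP vs PF (0.03, 0.05, -0.02 and -0.03 as reported), and the members' median was 0.12 in PF vs SAG, 0.13 in COR vs SAG and -0.1 in GP vs PF. Requiring FPKM of 1 or more in both libraries removed *Sp5*, *Lef1* and *Znrf3* from PF vs SAG, *Lef1* and *Znrf3* from PF vs COR and *Lef1* from GP vs PF, and gave medians of 0.08 (PF vs SAG), 0.17 (PF vs COR) and -0.18 (GP vs PF); with FPKM of 5 or more they were 0.23 (PF vs COR) and -0.18 (GP vs PF). In GP vs COR the median was -0.09 with no filter, and -0.35 with no filter and a pseudocount of 0.1, an alternative chosen after the data were seen.

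When both libraries had to reach 1 FPKM, members that had passed 3-fold were left out rather than changed. These were *Lef1* and *Sp5* in PF vs SAG, *Sp5* in COR vs SAG and in GP vs SAG, and *Lef1* in GP vs PF. The number of members past 3-fold then became 0 in PF vs SAG (8.76% of all genes) and 0 in GP vs PF (5.65%). The number was 1 in COR vs SAG (5.56%) and 1 in GP vs SAG (4.67%). In PF vs COR, where 11.7% of all genes passed as reported, it was 2 with a pseudocount of 0.1 (22.8% of all genes), 2 at 2-fold (29.4%) and 3 with no filter and a pseudocount of 0.1 (19.2%), when *Axin2* and *Lef1* joined *Tcf7*; *Axin2* then also passed in PF vs SAG. In GP vs PF (12% of all genes as reported) it was 2 with a pseudocount of 0.1, with the filter (22.4%) or without it (19.6%), 2 at 2-fold (29.1%), 2 with median-ratio scaling, without the 50 highest genes and after the GC correction (11.4% to 11.8%), and 0 relative to *Gapdh* (14.4%) or with FPKM of 5 or more (10.8%), a filter that left out *Lef1*. The number was 1 in GP vs SAG without the 50 highest genes (8.82% of all genes). It was 2 in GP vs COR at 2-fold, where the share of all genes rose from 4.4% to 9.95%. With median-ratio scaling or without the 50 highest genes, 1 member was highest in PF, 7 in SAG and 2 in COR, while quantile normalization gave 2, 3 and 5. Depth limits the values of *Axin2*, *Rnf43* and *Sp5* in PF most. No paired analysis was possible because there was only 1 library of each tissue.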
